A study of Mus musculus with 18 samples.

Results

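The 33 genes described here encode enzymes of the TCA cycle and the malate-aspartate shuttle, of the breakdown of branched-chain amino acids, and of the use of ketone bodies and acetate. They were listed by function, and each was read from the probe set of its symbol that had the highest mean signal. All 33 had a probe set, out of 12393 genes named on the array. RNA was measured on Affymetrix arrays that read the 3' part of transcripts, in soleus, a slow postural muscle of the calf, and in EDL (extensor digitorum longus), a fast muscle that lifts the toes. The male mice, C57BL/N6 in the methods and C57/BL6 in the labels, were 19 to 20 weeks old. BF (Bion Flown) mice spent 30 days in microgravity on the Bion M1 biosatellite, FC (Flight Control) mice lived in the animal facility, and BG (Bion Ground) mice spent 30 days on the ground in the habitat of the flight. Each group gave 3 arrays of soleus and 3 of EDL. BF and BG mice ate paste food and FC mice ate standard chow, and BF mice were moved for 12 to 14 h after landing, so that flight, landing and transport cannot be told apart, and BF and FC differed in food and cage as well. The descriptions of BF EDL2 and EDL3 name Bion M2 and Bion M3 while their source field names Bion M1, and both were kept in BF. The labels do not say whether soleus and EDL arrays of the same number came from the same mouse.

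As background, the TCA cycle of the mitochondrion oxidises acetyl groups from carbohydrate, fat, amino acids and ketone bodies, and hands electrons to the respiratory chain. Slow, oxidative fibres depend on it more than fast, glycolytic fibres do. Leucine, isoleucine and valine are broken down to a large part in muscle, and their carbon enters the cycle as acetyl-CoA or succinyl-CoA, while ketone bodies made by the liver are turned back into acetyl-CoA in muscle mitochondria.

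The 250 bases upstream of the transcription start are shown for the 4 genes that fell more than 2-fold in flown soleus against both control groups, and for Idh1, whose pattern differed from theirs. Capitals mark the GC box (GGGCGG, or CCGCCC on the other strand) and the CCAAT box (CCAAT, or ATTGG on the other strand), both common elements of mouse promoters. The sequences are from RefSeq on build GRCm38.p6 and read 5′ to 3′ on the strand of the gene. They cover chr16:31422047-31422296 on the plus strand for Bdh1, chr7:80115351-80115600 on the minus strand for Idh2, chr2:155517793-155518042 on the plus strand for Acss2, chr15:4026178-4026427 on the plus strand for Oxct1 and chr1:65186480-65186729 on the minus strand for Idh1. For Bdh1 and Idh1, which have more than 1 listed start, the first one is given.
Bdh1: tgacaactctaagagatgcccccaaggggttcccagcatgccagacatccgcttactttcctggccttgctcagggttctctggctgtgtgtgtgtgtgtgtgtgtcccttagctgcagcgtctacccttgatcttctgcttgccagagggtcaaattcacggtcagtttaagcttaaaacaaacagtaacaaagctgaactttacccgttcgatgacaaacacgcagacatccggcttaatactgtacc
Idh2: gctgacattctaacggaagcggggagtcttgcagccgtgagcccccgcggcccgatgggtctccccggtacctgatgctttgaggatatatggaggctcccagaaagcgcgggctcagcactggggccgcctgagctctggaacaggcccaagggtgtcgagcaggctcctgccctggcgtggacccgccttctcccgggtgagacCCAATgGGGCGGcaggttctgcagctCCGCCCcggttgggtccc
Acss2: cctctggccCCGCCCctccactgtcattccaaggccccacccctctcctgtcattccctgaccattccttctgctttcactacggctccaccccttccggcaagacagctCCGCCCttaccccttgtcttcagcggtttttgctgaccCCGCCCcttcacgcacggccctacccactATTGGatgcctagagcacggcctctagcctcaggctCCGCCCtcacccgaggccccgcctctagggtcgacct
Oxct1: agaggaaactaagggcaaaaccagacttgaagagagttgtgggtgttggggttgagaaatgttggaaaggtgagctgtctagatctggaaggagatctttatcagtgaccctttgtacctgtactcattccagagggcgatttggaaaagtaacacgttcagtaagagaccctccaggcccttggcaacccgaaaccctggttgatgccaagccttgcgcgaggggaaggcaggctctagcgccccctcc
Idh1: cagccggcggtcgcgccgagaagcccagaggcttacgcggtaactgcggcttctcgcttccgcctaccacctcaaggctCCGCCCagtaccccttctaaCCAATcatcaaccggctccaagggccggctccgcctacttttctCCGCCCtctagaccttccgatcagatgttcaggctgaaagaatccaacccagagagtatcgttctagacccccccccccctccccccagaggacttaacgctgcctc
The Acss2 window holds 4 GC boxes and 1 CCAAT box, those of Idh2 and Idh1 hold 2 GC boxes and 1 CCAAT box each, and those of Bdh1 and Oxct1 hold neither. Over 30 of the 33 genes with 41 such windows, 18 windows held a GC box and 23 a CCAAT box, against 32.7% and 33.8% of all 32851 mouse windows. The binding motif of ERR nuclear receptors (TNAAGGTCA) was in 0 of the 41 windows and in 1.14% of all, the PPAR motif (AGGTCA repeated after 1 base of any kind) in 0 of the 41 and in 0.0335% of all, and the NRF1 motif (GCGC and TGCGC parted by 1 base of any kind) in 3, those of Hibadh, Pccb and Sucla2, and in 3.74% of all, each searched on both strands.

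Signals are RMA values on the log2 scale, on which a difference of 1 is a 2-fold change. Array medians ran from 6.17 to 6.26, and arrays of the same group correlated at 0.978 to 0.995 over all probe sets. The muscle labels were checked with 8 slow fibre genes such as Myh7, whose mean log2 signal was 12.43 to 12.93 in BF, 13.47 to 13.52 in FC and 13.49 to 13.55 in BG soleus, and 8.42 to 9.69 in BF, 7.38 to 10.46 in FC and 8.67 to 10.51 in BG EDL. Differences were tested with limma in 1 model over the 18 arrays, with Benjamini-Hochberg adjustment of the p values across the 22626 tested probe sets. A gene rose or fell when its adjusted p was under 0.05, at any fold change. The p values rest on the spread between the 3 arrays within groups, pooled over the 6 groups and moderated by limma across probe sets.

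In soleus of flown mice the genes were lower as a group than in BG mice. Of the 33, 20 fell and 0 rose, while 12.3% of the 12393 genes fell and 11.1% rose. The value was below 0 for 32 of 33 genes, against 45.8% of all genes, and the median log2 fold change was -0.40, against 0.03 over all genes. The 5 genes that fell more than 2-fold were Bdh1, Idh2, Acss2, Oxct1 and Suclg2, and 1.54% of all genes did so. On their probe sets 30 of the 33 genes were in the upper quartile of mean signal, and in that quartile 24.6% of 3099 genes fell and 2070 of 3099 had a value below 0. In a bulk muscle sample, fewer cells of a type and less RNA per cell cannot be told apart.

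**Figure D1:**
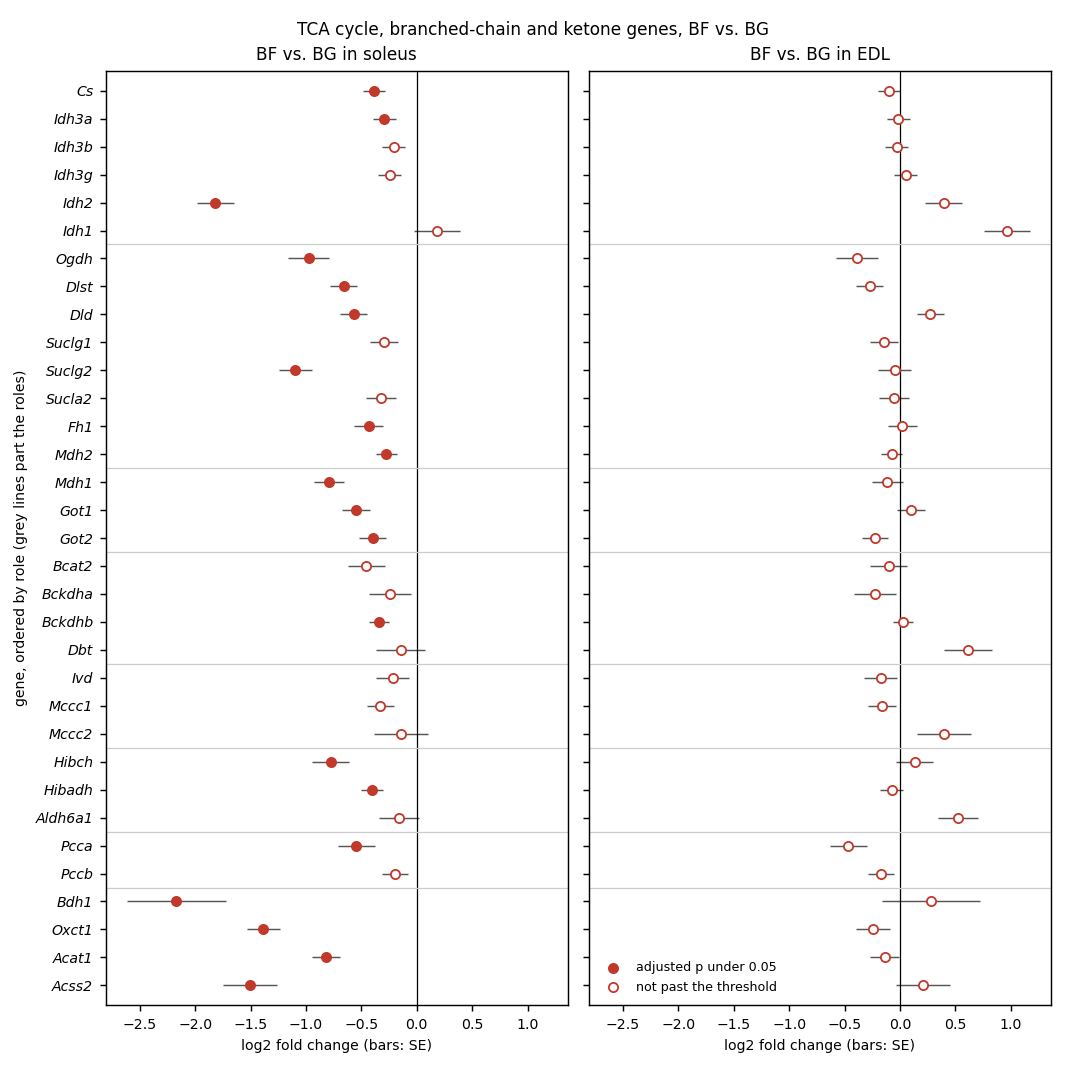
Log2 fold change of BF vs. BG in soleus (left) and EDL (right) for the 33 genes, ordered by role. Points are differences of 3 against 3 arrays, bars are the SE and filled points passed an adjusted p under 0.05. In soleus 20 points are filled and 32 lie below 0, and in EDL none is filled.

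All 4 ketone body and acetate genes fell, beside 12.3% of all genes, with a median log2 fold change of -1.45. Bdh1, the mitochondrial dehydrogenase that turns hydroxybutyrate into acetoacetate, had soleus signals of 9.26, 10.15 and 9.57 in BF, 11.42, 11.42 and 11.30 in FC and 11.98, 11.76 and 11.75 in BG. The highest BF array was more than 1 unit under the lowest control array. Bdh1 had the largest fall of the 33 genes (log2 fold change -2.17, SE 0.45, adjusted p = 0.00275).

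Oxct1, which activates acetoacetate by passing it the CoA of succinyl-CoA, gave 11.41, 11.09 and 11.50 in BF, 12.54, 12.60 and 12.73 in FC and 12.74, 12.62 and 12.81 in BG. The BF arrays were again apart from both control groups, which overlapped with each other (log2 fold change -1.39, SE 0.15, adjusted p = 2.25e-05). Acat1 cleaves acetoacetyl-CoA into acetyl-CoA and also serves the isoleucine route. Its signals were 10.86, 10.97 and 11.17 in BF, 11.50, 11.59 and 11.43 in FC and 11.64, 12.05 and 11.78 in BG, with BF lowest and BG highest and no overlap among the 3 groups (log2 fold change -0.82, SE 0.13, adjusted p = 3.75e-04). Acss2, the acetyl-CoA synthetase of cytosol and nucleus, showed 8.83, 7.84 and 8.44 in BF, 9.81, 10.09 and 10.29 in FC and 9.71, 9.94 and 9.98 in BG. The BF arrays spread over almost 1 unit and were all below the controls (log2 fold change -1.51, SE 0.24, adjusted p = 4.80e-04).

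Among the enzymes that make citrate and oxidise isocitrate, the NADP-dependent mitochondrial Idh2 stood apart from the rest. Its signals were 10.32, 10.62 and 10.47 in BF, 12.07, 11.996 and 11.99 in FC and 12.34, 12.36 and 12.16 in BG. All BF arrays lay below all control arrays by more than 1 unit (log2 fold change -1.82, SE 0.17, adjusted p = 3.97e-06). Citrate synthase (Cs), the entry enzyme of the cycle, fell by a smaller amount (log2 fold change -0.39, SE 0.10, adjusted p = 0.00982). Of the 3 subunits of the NAD-dependent isocitrate dehydrogenase, Idh3a fell (-0.29, adjusted p = 0.0494), and Idh3b (-0.21, adjusted p = 0.159) and Idh3g (-0.25, adjusted p = 0.0934) did not pass the test. Idh1, the cytosolic enzyme, was the single gene above 0 in soleus, at 0.18 (adjusted p = 0.556).

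**Figure D2:**
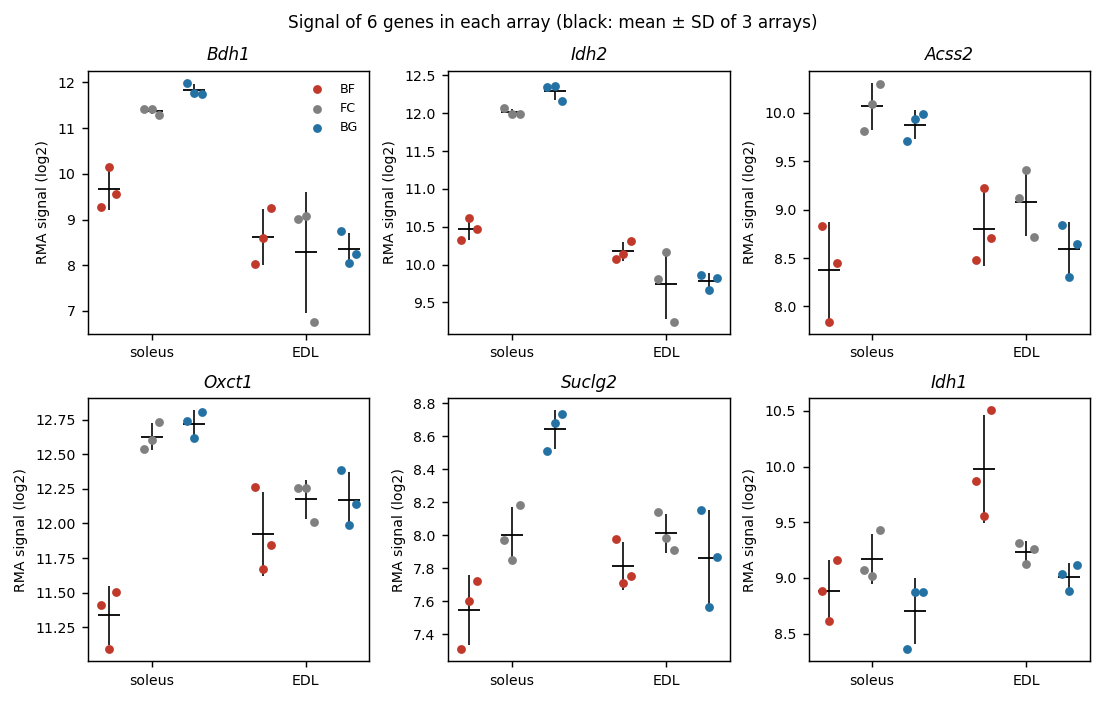
RMA log2 signal of Bdh1, Idh2, Acss2, Oxct1, Suclg2 and Idh1 in each array, for BF (red), FC (grey) and BG (blue) in soleus and in EDL. Points are arrays and black marks are the mean and SD of 3 arrays. For the first 5 genes the BF soleus arrays lie below all BG soleus arrays, and for Idh1 the highest signals are those of BF EDL.

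From oxoglutarate to oxaloacetate, 6 of 8 genes fell, beside 12.3% of all genes. Ogdh, the first subunit of the oxoglutarate dehydrogenase complex, had soleus signals of 10.70, 10.38 and 10.29 in BF, 11.72, 11.76 and 11.73 in FC and 11.52, 11.63 and 11.15 in BG. BF was lowest without overlap, and every FC array was above every BG array (log2 fold change -0.98, SE 0.19, adjusted p = 0.00182). Its partner Dlst fell as well (log2 fold change -0.66, SE 0.12, adjusted p = 0.00135). Dld is the third subunit, shared with pyruvate and branched-chain dehydrogenases. It gave 9.78, 9.78 and 10.01 in BF, 9.89, 9.54 and 9.96 in FC and 10.25, 10.52 and 10.53 in BG. Here BF and FC overlapped and both were below BG (log2 fold change -0.57, SE 0.12, adjusted p = 0.00354).

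Suclg2, the GTP-forming subunit of succinyl-CoA synthetase, gave 7.31, 7.60 and 7.72 in BF, 7.97, 7.85 and 8.18 in FC and 8.51, 8.68 and 8.73 in BG. The 3 groups did not overlap, with FC between BF and BG (log2 fold change -1.10, SE 0.15, adjusted p = 1.29e-04). The ATP-forming subunit Sucla2 (-0.33, adjusted p = 0.089) and the shared subunit Suclg1 (-0.30, adjusted p = 0.101) did not pass. Fumarase (Fh1, -0.43, adjusted p = 0.0254) and mitochondrial malate dehydrogenase (Mdh2, -0.28, adjusted p = 0.0473) fell.

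All 3 genes of the malate-aspartate shuttle, which carries the electrons of cytosolic NADH into mitochondria, fell, beside 12.3% of all genes. Cytosolic malate dehydrogenase (Mdh1) had 12.29, 12.31 and 12.55 in BF, 13.08, 12.97 and 12.98 in FC and 13.22, 13.18 and 13.13 in BG. Each BF array was below each control array (log2 fold change -0.79, SE 0.14, adjusted p = 8.51e-04). Got1, the cytosolic aspartate aminotransferase, gave 11.73, 11.93 and 11.89 in BF, 11.74, 11.62 and 11.84 in FC and 12.57, 12.36 and 12.26 in BG. As for Dld, the BF and FC arrays overlapped below BG (log2 fold change -0.55, SE 0.13, adjusted p = 0.00582). The mitochondrial aminotransferase Got2 gave 11.90, 11.76 and 11.74 in BF, 12.59, 12.63 and 12.54 in FC and 12.26, 12.22 and 12.11 in BG. BF was lowest and FC highest, with no overlap (log2 fold change -0.40, SE 0.12, adjusted p = 0.0233).

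Of the branched-chain genes 4 of 12 fell, with values on the brightest probe sets from -0.78 (Hibch) to -0.14 (Mccc2). This count was not far above the 24.6% that fell in the upper quartile of mean signal, and 12.3% of all genes fell. Of the shared steps, Bckdhb, the second subunit of the branched-chain dehydrogenase, fell (-0.34, adjusted p = 0.0133). The aminotransferase Bcat2 (-0.46, adjusted p = 0.0575) and the other dehydrogenase subunits Bckdha (-0.24, adjusted p = 0.367) and Dbt (-0.14, adjusted p = 0.668) did not pass. On the leucine arm none of 3 passed, namely isovaleryl-CoA dehydrogenase Ivd (-0.22, adjusted p = 0.303) and the methylcrotonyl-CoA carboxylase subunits Mccc1 (-0.33, adjusted p = 0.0652) and Mccc2 (-0.14, adjusted p = 0.715).

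On the valine arm, Hibch, which releases hydroxyisobutyrate from CoA, had soleus signals of 8.81, 8.66 and 9.20 in BF, 9.24, 9.25 and 9.44 in FC and 9.47, 9.81 and 9.73 in BG. All BF arrays were below all control arrays, by a small margin against FC (log2 fold change -0.78, SE 0.16, adjusted p = 0.00331). The next enzyme Hibadh fell (-0.41, adjusted p = 0.00983), and Aldh6a1, which makes propionyl-CoA, did not pass (-0.16, adjusted p = 0.55). Propionyl-CoA carboxylase joins the valine and isoleucine routes to the cycle. Its subunit Pcca fell (-0.54, adjusted p = 0.0277) and Pccb did not pass (-0.20, adjusted p = 0.24). Of the 20 falls, 13 passed under every alternative run other than the study's 2-fold limit, and those of Idh3a, Dlst, Fh1, Mdh2, Got2, Bckdhb and Pcca did not.

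Against FC soleus, 19 genes fell and 1 rose in BF, while 16.0% of all genes fell and 9.02% rose. In the upper quartile of mean signal 767 of 3099 genes fell. BF vs. BG, BF vs. FC and FC vs. BG share arrays in pairs, and their values are only set side by side. Of all genes 2.06% fell more than 2-fold. The 5 falls of that size were those of Bdh1 (-1.72, SE 0.45), Acss2 (-1.70, SE 0.24), Idh2 (-1.55, SE 0.17), Oxct1 (-1.29, SE 0.15) and Ogdh (-1.28, SE 0.19), with adjusted p from 1.51e-05 to 0.00977. Bckdha (-0.86, adjusted p = 0.00326), Ivd (-0.49, adjusted p = 0.0221), Mccc1 (-0.46, adjusted p = 0.0127) and Idh3b (-0.29, adjusted p = 0.0497) fell against FC and did not pass against BG. The opposite calls, a fall against BG with no pass against FC, were those of Dld (0.07, adjusted p = 0.738), Got1 (0.12, adjusted p = 0.538), Idh3a (0.07, adjusted p = 0.659), Hibch (-0.42, adjusted p = 0.0729) and Fh1 (-0.31, adjusted p = 0.0982), with the values against FC given here. Mccc2 was the single gene that rose (log2 fold change 1.04, SE 0.24, adjusted p = 0.00524). Of the 20 calls 13 passed under every alternative in which they were tested other than the 2-fold limit (Mccc2 was removed by the filter on low signal and so not tested there), and those of Idh3b, Suclg2, Mdh2, Bckdhb, Ivd, Mccc1 and Hibadh did not.

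Between the 2 control groups, which differ in housing and food, 2 genes rose and 5 fell in FC soleus against BG soleus, beside 5.78% and 4.03% of all genes. Mccc2 had signals of 3.69, 4.48 and 4.28 in FC and 5.58, 5.15 and 5.28 in BG. The groups did not overlap, and the BF arrays, at 5.08, 5.07 and 5.43, lay near BG (log2 fold change -1.18, SE 0.24, adjusted p = 0.00612 for FC vs. BG). The probe set of Mccc2 is dim, with a mean of 4.99 against a median of 6.68 over all genes.

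The other falls in FC against BG were those of Got1 (log2 fold change -0.66, SE 0.13, adjusted p = 0.00371), Suclg2 (log2 fold change -0.64, SE 0.15, adjusted p = 0.0117), Dld (log2 fold change -0.64, SE 0.12, adjusted p = 0.0039) and Idh3a. For Idh3a the soleus arrays ran from 11.78 to 12.06 in BF, 11.79 to 11.97 in FC and 12.19 to 12.30 in BG, so that BF and FC overlapped (log2 fold change -0.37, SE 0.10, adjusted p = 0.0308). Its 2 other probe sets gave 0.04 and 0.05 and did not pass, and the mean of all 3 gave -0.09 (adjusted p = 0.726). Bckdha, the first subunit of the branched-chain dehydrogenase, had 9.13, 8.63 and 8.61 in BF, 9.47, 9.80 and 9.68 in FC and 8.84, 9.22 and 9.05 in BG. All FC arrays were above the others, and BF and BG overlapped (log2 fold change 0.61, SE 0.19, adjusted p = 0.0425). Got2 also rose on its brightest probe set (log2 fold change 0.39, SE 0.12, adjusted p = 0.0432), but its other probe set fell (-0.70, adjusted p = 0.00432). In this comparison 0 of the 3 other probe sets of the 7 genes had the same sign as the brightest one. Among genes not called on their brightest probe sets, another one fell for Hibch (-1.69, adjusted p = 0.00953), Cs (-0.45, adjusted p = 0.0327) and Acat1 (-0.44, adjusted p = 0.0496). The remaining ones of Cs (0.20) and Acat1 (-0.40) did not pass. The count of 7 was 4 without soleus BG 1, soleus BG 2 or soleus FC 1 and 3 without soleus BG 3 or soleus FC 2, each left out in turn.

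**Figure D3:**
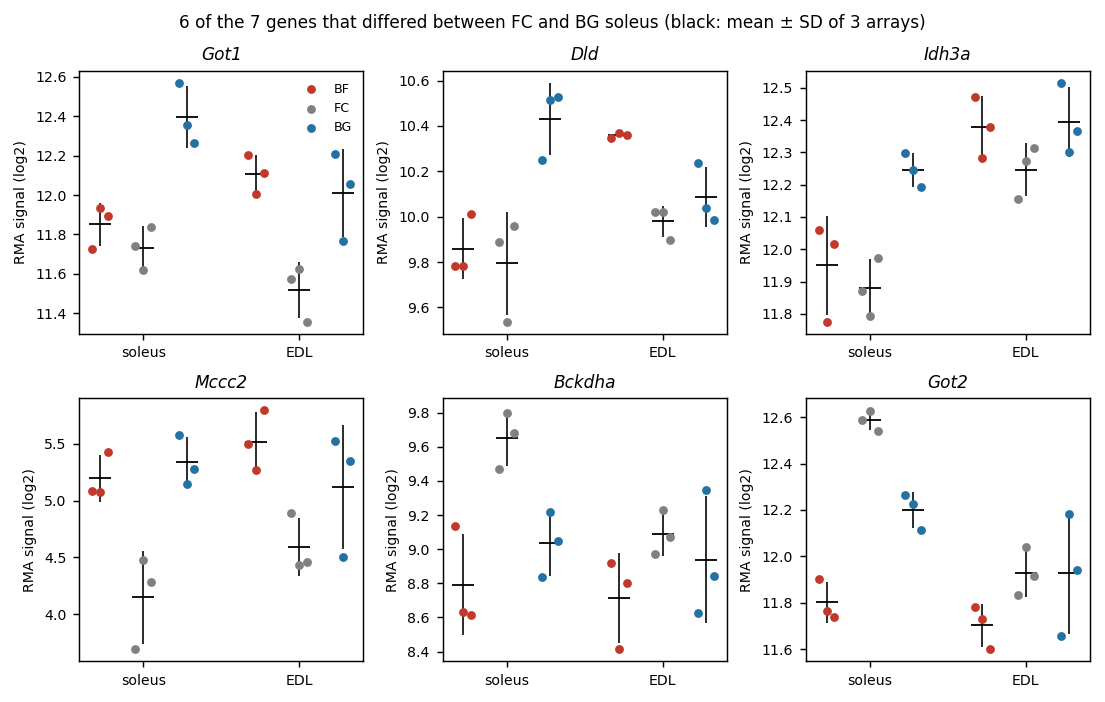
RMA log2 signal of Got1, Dld, Idh3a, Mccc2, Bckdha and Got2 in each array, for BF (red), FC (grey) and BG (blue) in soleus and in EDL, with the mean and SD of 3 arrays in black. In soleus FC lies below BG for Got1, Dld, Idh3a and Mccc2 and above BG for Bckdha and Got2.

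In EDL, 0 of the 33 genes rose or fell in BF against BG by limma, and 0.379% of all genes did. At an unadjusted p under 0.05, 5 genes were higher and 2 lower, beside 5.39% and 6.72% of all genes, and ordinary contrasts without moderation gave 0 calls as well. The median log2 fold change was -0.05. Idh2 had EDL signals of 10.07, 10.15 and 10.31 in BF, 9.81, 10.16 and 9.24 in FC and 9.86, 9.66 and 9.82 in BG. The BF arrays were above the BG arrays by a small margin, with log2 fold change 0.39, SE 0.17, adjusted p = 0.355. Bdh1 gave 8.03, 8.60 and 9.25 in BF, 9.02, 9.08 and 6.76 in FC and 8.74, 8.06 and 8.24 in BG, and the 3 groups overlapped (log2 fold change 0.28, SE 0.45, adjusted p = 0.861). FC EDL3 was more than 1 unit below all other EDL arrays.

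Idh1 had the largest EDL value, and was singled out after its values were seen. Its signals were 9.87, 9.56 and 10.50 in BF, 9.32, 9.12 and 9.26 in FC and 9.04, 8.88 and 9.12 in BG. Every BF array was above every control array, with log2 fold change 0.97, SE 0.21, adjusted p = 0.0529 against BG and log2 fold change 0.75, SE 0.21, adjusted p = 0.0529 against FC. Its other probe set passed both tests (1.19, adjusted p = 0.0177 against BG, and 1.14, adjusted p = 0.00502 against FC). By their names, both are of the kind whose probes can match transcripts of more than 1 gene. The first probe set passed against BG in 6 of 8 alternative analyses, with adjusted p from 0.0116 to 0.138 over the 8, and without EDL BF 3 its value was 0.70 (adjusted p = 0.119). Beside Idh1 and Idh2, the EDL genes at an unadjusted p under 0.05 against BG were Dbt (0.61, adjusted p = 0.267), Aldh6a1 (0.52, adjusted p = 0.247), Dld (0.27, adjusted p = 0.395), Pcca (-0.47, adjusted p = 0.266) and Dlst (-0.27, adjusted p = 0.39).

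In EDL of FC against BG mice, 0 genes rose or fell by limma, where 0.0323% of all genes did. At an unadjusted p under 0.05, 1 was higher and 2 were lower, beside 5.74% and 5.33% of all genes. Ordinary contrasts also gave 0, and the values ran from -0.53 (Mccc2) to 0.49 (Acss2). In BF against FC EDL, Got1 (log2 fold change 0.59, SE 0.13, adjusted p = 0.0161) and Mccc2 (log2 fold change 0.92, SE 0.24, adjusted p = 0.0447) rose and Pcca fell (log2 fold change -0.64, SE 0.17, adjusted p = 0.0419), beside 1.02% of all genes higher and 2.52% lower. Got1 had EDL signals of 12.20, 12.01 and 12.11 in BF, 11.57, 11.62 and 11.36 in FC and 12.21, 11.77 and 12.05 in BG. The FC arrays were lowest, and BF overlapped with BG. The count of 3 was 0 without EDL BF 1 or EDL FC 3 and 1 without soleus BG 2, soleus BG 3 or soleus FC 3, whose absence changes the shared estimate of the spread.

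The BF vs. BG change was compared between muscles by an interaction, the change in soleus minus that in EDL. It was below 0 for all 33 genes, against 44.6% of all genes, and 10 genes passed, while 5.04% of all genes passed in that direction and 4.21% in the other. In the upper quartile of mean signal, which holds 30 of the 33, 2046 of 3099 genes were below 0 and 313 passed in that direction. The 10 genes of the 33 that passed are named next. They were Bdh1 (log2 fold change -2.45, SE 0.63, adjusted p = 0.0259), Idh2 (log2 fold change -2.21, SE 0.23, adjusted p = 8.57e-05), Acss2 (log2 fold change -1.71, SE 0.34, adjusted p = 0.00865), Oxct1 (log2 fold change -1.14, SE 0.21, adjusted p = 0.00604) and Suclg2 (log2 fold change -1.05, SE 0.21, adjusted p = 0.00885), followed by Hibch (-0.91), Dld (-0.84), Acat1 (-0.68), Mdh1 (-0.68) and Got1 (-0.64), with adjusted p from 0.00969 to 0.0394. On these probe sets the EDL value was above 0 for Bdh1, Idh2, Acss2, Hibch, Dld and Got1. For Oxct1, Suclg2, Acat1 and Mdh1 it was below 0 and nearer to 0 than in soleus. None of these EDL values passed. Other probe sets gave the other sign for Bdh1 (-0.21), Acss2 (-0.17), Acat1 (0.13 and 0.04), Mdh1 (0.31, 0.07 and 0.06) and Oxct1 (0.40 and 0.03). Those of Hibch (0.67) and another of Oxct1 (-0.56) had the same sign. The other 23 genes did not pass on their brightest probe sets. They include 10 that fell in soleus, whose change was not shown to differ from EDL on these probe sets, such as Ogdh (-0.59, adjusted p = 0.165), Cs (-0.29, adjusted p = 0.186), Dlst (-0.39, adjusted p = 0.157), Got2 (-0.17, adjusted p = 0.521) and Pcca (-0.08, adjusted p = 0.864). The other probe sets of Got2 (-0.78, adjusted p = 0.0222), Ivd (-0.82, adjusted p = 0.0233) and Idh1 (-1.30, adjusted p = 0.0139) did pass. Beside the 10 genes that passed, 10 of 11 other probe sets also passed. The count of 10 was 5 without soleus BF 1, soleus BG 2, EDL BG 2 or EDL BG 3 and 6 without soleus BG 3, each left out in turn.

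With FC in place of BG, the interaction was below 0 for 32 of 33 genes, against 51.9% of all genes. It passed for Idh2 (log2 fold change -1.98, SE 0.23, adjusted p = 4.66e-04), Oxct1 (log2 fold change -1.04, SE 0.21, adjusted p = 0.0174) and Acss2 (log2 fold change -1.42, SE 0.34, adjusted p = 0.0421), and 1.19% of all genes passed in that direction. In the upper quartile of mean signal 1754 of 3099 genes were below 0 and 66 passed. Bdh1 had a larger value that did not pass on its brightest probe set (log2 fold change -2.06, SE 0.63, adjusted p = 0.107), and its FC EDL arrays spread over more than 2 units. Its other probe set passed (-2.65, adjusted p = 0.0326), and so did the other one of Ivd (-1.01, adjusted p = 0.0163). Beside the 3 genes that passed, 3 of 4 other probe sets passed in the same direction. The count of 3 was 1 without soleus FC 3 or EDL FC 3, 6 without soleus BF 3 and 5 without EDL BF 2.

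The soleus vs. EDL difference was then read in each condition. In BG mice 9 genes were higher in soleus than in EDL and 0 were lower by the adjusted p, beside 8.30% and 8.71% of all genes. In the upper quartile of mean signal, which holds most of the 33, 506 of 3099 genes were higher and 360 were lower. On the brightest probe sets none of the 33 was lower at an unadjusted p under 0.05. Both other probe sets of Idh3a were lower (-0.69, adjusted p = 0.00605, and -0.82, adjusted p = 0.00429). Other probe sets of Got2 (0.77, adjusted p = 8.36e-04), Ivd (0.64, adjusted p = 0.00561) and Cs (0.44, adjusted p = 0.0263), not called on their brightest ones, were higher. The largest excess was that of Bdh1, with 11.98, 11.76 and 11.75 in BG soleus and 8.74, 8.06 and 8.24 in BG EDL (log2 fold change 3.49, SE 0.45, adjusted p = 4.96e-05). Idh2 followed, with 12.34, 12.36 and 12.16 in BG soleus and 9.86, 9.66 and 9.82 in BG EDL (log2 fold change 2.51, SE 0.17, adjusted p = 5.60e-08). The muscles did not overlap for either gene. Acss2 (1.28), Suclg2 (0.78), Acat1 (0.73), Hibch (0.63), Oxct1 (0.55), Mdh1 (0.55) and Got1 (0.39) were the others.

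In FC mice 7 genes were higher in soleus (Bdh1, Idh2, Acss2, Got2, Acat1, Ogdh and Mdh1, from 3.09 to 0.55), and Aldh6a1 (-0.55) and Idh3a (-0.37) were lower, beside 8.00% and 8.40% of all genes. In the upper quartile of mean signal 342 of 3099 genes were higher and 558 were lower. The count of 9 was 4 without EDL FC 3, and the Bdh1 excess was then 2.33 (adjusted p = 1.00e-04). The log2 of the summed slow fibre signal ran from 10.66 to 13.88 in FC EDL and from 11.87 to 13.88 in BG EDL, and its part in the difference was not tested.

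In BF mice 0 of the 33 genes were higher in soleus and 7 were lower, beside 5.79% and 6.63% of all genes. In the upper quartile of mean signal 193 of 3099 genes were higher and 416 were lower. Bdh1 alone was higher in soleus at an unadjusted p under 0.05 (log2 fold change 1.03, SE 0.45, adjusted p = 0.139). Ordinary contrasts without moderation called 7 genes as well. The 7 lower genes were Idh1 (-1.09, adjusted p = 0.00446), Dbt (-0.77, adjusted p = 0.0325), Aldh6a1 (-0.67, adjusted p = 0.0234), Oxct1 (-0.59, adjusted p = 0.0194), Dld (-0.50, adjusted p = 0.0159), Idh3a (-0.43, adjusted p = 0.0151) and Hibadh (-0.34, adjusted p = 0.0425). Oxct1 had 11.41, 11.09 and 11.50 in BF soleus and 12.26, 11.67 and 11.85 in BF EDL, with no overlap. Its soleus excess in BG mice was on the other side of 0. The count of 7 was 1 without soleus BF 2, 2 without EDL BF 1 and 11 without soleus BF 3.

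**Figure D4:**
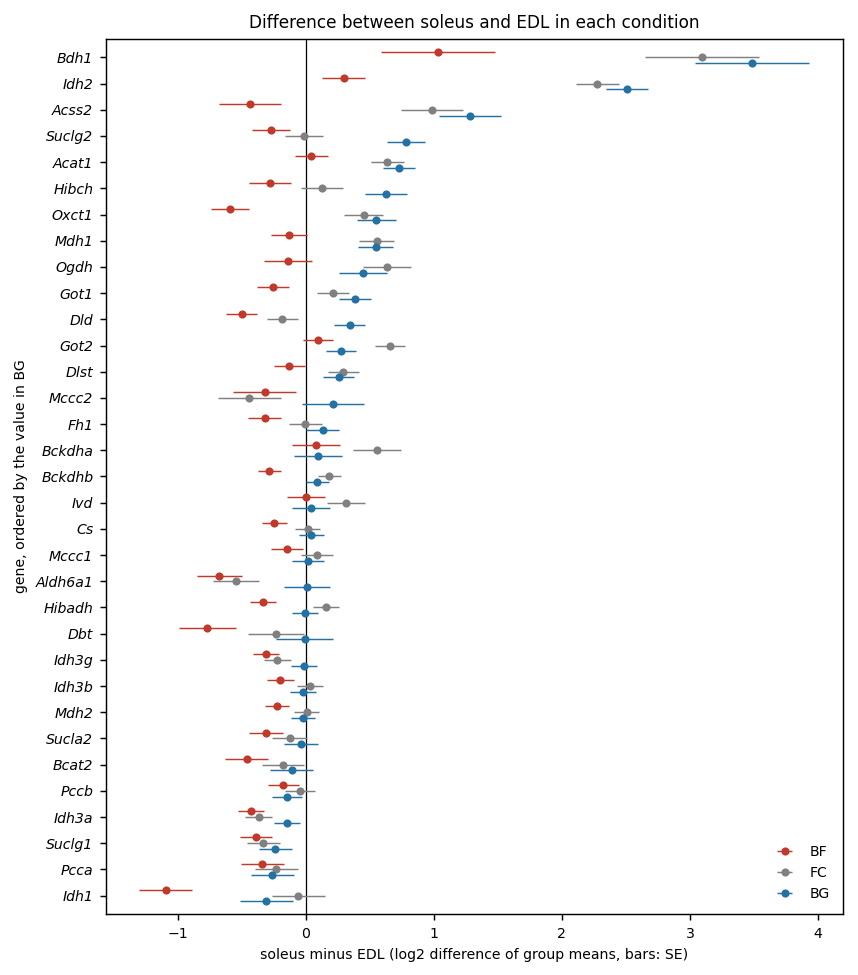
Difference between soleus and EDL in log2 units (soleus minus EDL, group means of 3 arrays, bars are the SE) for BF (red), FC (grey) and BG (blue), with genes ordered by the value in BG. Bdh1 and Idh2 lie far to the right in FC and BG and nearer to 0 in BF, and Idh1 lies farthest to the left in BF.

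The values in flown soleus were set against the muscle difference in animals that did not fly. The soleus vs. EDL value in FC and the BF vs. BG value in soleus share no array, and over the 33 genes they had a Pearson r of -0.83 and a Spearman rho of -0.63. Over all 12393 genes the values were -0.27 and -0.10. Genes are not independent replicates, the points share the arrays on each axis, and no p is given. Bdh1 and Idh2 lie at the far end of both axes, and over the 31 other genes, a choice made after seeing the data, r was -0.61 and rho -0.55. Suclg2 (-0.01 in FC soleus vs. EDL, -1.10 in BF vs. BG soleus) was near 0 on the first measure and among the lowest on the second.

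**Figure D5:**
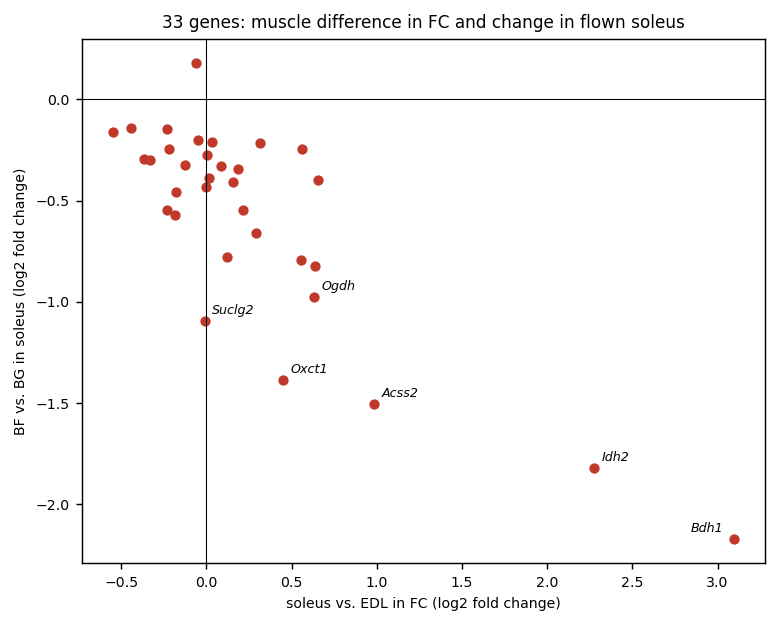
Each point is 1 of the 33 genes. The x axis is the log2 fold change of soleus vs. EDL in FC, and the y axis that of BF vs. BG in soleus, each from 3 against 3 arrays. Bdh1 and Idh2, farthest to the right at 3.09 and 2.28, also lie lowest at -2.17 and -1.82.

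The genes whose 6 group means (3 conditions in 2 muscles) were most like those of Idh2 were Bdh1 (Pearson r = 0.99), Acat1 (0.94), Mdh1 (0.90), Acss2 (0.85) and Got2 (0.78). The correlations rest on 6 points that share the same 18 arrays.

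Of the 33 genes 16 had more than 1 probe set, 56 in all. Beside the genes that fell in BF vs. BG soleus there were 19 other probe sets, of which 17 had the same sign and 14 also fell. The other probe set of Bdh1 fell further (-3.60, adjusted p = 4.39e-05), as did those of Oxct1, from -1.62 to -2.61, and both of Acat1 (-1.12 and -1.06). For Idh3a they gave -0.07 and 0.12, and for Dlst a dim one gave 0.08, none of which passed. The other probe set of Hibch, with a mean signal of 5.97, fell further (-1.90, adjusted p = 0.00222). It also fell in FC vs. BG soleus (-1.69, adjusted p = 0.00953) and did not pass in BF vs. FC soleus (-0.21, adjusted p = 0.729). In Ivd, not called on its brightest probe set, the other one fell (-0.88, adjusted p = 5.43e-04).

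Other genes of the same routes were read from listed pathways. Their counts stand beside 12.3% of all genes that fell and 11.1% that rose. In the upper quartile of mean signal 24.6% fell. In BF vs. BG soleus, 4 of 5 measured genes of the rest of the TCA cycle (6 listed) fell and 0 rose, led by the succinate dehydrogenase subunit Sdhc (-0.87), the aconitase Aco1 (-0.76) and Sdhb (-0.60). For pyruvate entry, 5 of 10 measured (15 listed) fell, among them Dlat (-0.72) of the pyruvate dehydrogenase complex and its kinase Pdk1 (-0.68), and Pcx, pyruvate carboxylase, rose (0.51). Of the rest of branched-chain breakdown, 6 of 12 measured (14 listed) fell, such as Mcee (-0.88), Echs1 (-0.67) and Auh (-0.46), and 0 rose. Of the rest of ketone and acetate use, Acss1 (-0.82) and the monocarboxylate carrier Slc16a1 (-0.74) fell among 4 measured of 8 listed. Of 3 measured carriers (5 listed), Slc25a11, the oxoglutarate carrier, fell (-0.92) and Slc25a10, the dicarboxylate carrier, rose (0.50).

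Of 10 regulators of oxidative genes, 5 fell and 1 rose in BF vs. BG soleus, beside 12.3% and 11.1% of all genes. Ppara (-2.06), a nuclear receptor of fatty acid and ketone metabolism, and the coactivators Ppargc1a (-1.60) and Ppargc1b (-1.15) had the largest falls, and Esrra and Tfam also fell. Ppard rose (0.57), and these last 3 were named after their values were seen. In EDL, 0 genes of these 6 lists passed in BF vs. BG, where 0.379% of all genes did.

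Markers of fibre types and of other cells were read beside these changes, and their part in them was not tested. The markers named here were those that passed. The counts stand beside 12.3% of all genes that fell and 11.1% that rose, and several were near these shares. In BF vs. BG soleus, 1 of 8 slow fibre markers fell (Casq2, -2.06) and 5 of 9 fast fibre markers rose (Actn3, Myh4, Pvalb, Mylpf and Atp2a1, from 4.43 to 0.31). All 8 slow values were below 0 and all 9 fast values above 0, where 45.8% of all genes were below 0. For all 8 slow markers every BF array was below every BG array, as for 2351 of 12393 genes. The log2 of the summed signal of the slow list was 15.83 to 16.29 in BF, 16.72 to 16.74 in FC and 16.73 to 16.77 in BG soleus, and that of the fast list 16.79 to 17.14 in BF, 16.27 to 16.48 in FC and 16.36 to 16.50 in BG. Of fat cell markers 4 of 5 measured (7 listed) rose (Lep, Cidec, Adipoq and Retn, from 2.96 to 1.89), with sums of 12.84 to 13.94 in BF, 12.66 to 12.93 in FC and 12.91 to 13.26 in BG. For macrophages 1 of 6 rose (Cd68, 3.40), with sums of 10.69 to 11.83 in BF, 10.47 to 10.74 in FC and 9.95 to 10.18 in BG. Of endothelial markers 1 of 6 rose (Cldn5) and 3 fell (Kdr, Vwf and Tek), with sums of 9.96 to 10.30 in BF, 10.59 to 10.77 in FC and 10.48 to 10.56 in BG. For tendon and cartilage 5 of 6 fell (Chad, Tnmd, Fmod, Comp and Thbs4), with sums of 10.13 to 11.72 in BF, 12.21 to 13.05 in FC and 12.07 to 12.73 in BG. Of red blood cell markers 1 of 3 measured (5 listed) rose (Hba-a1) and 1 fell (Slc4a1), with sums of 6.90 to 7.22 in BF, 7.03 to 7.37 in FC and 6.94 to 7.05 in BG. Both probe sets are dim, with soleus means of 4.70 in BF and 4.38 in BG for Hba-a1 and 4.24 and 4.79 for Slc4a1. The median over all genes was 6.68.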

How the data were processed

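Total RNA (3' IVT Express labelling) of 18 muscles was hybridised to Affymetrix Mouse Genome arrays, 3 per group and muscle. The deposited values are log2 signals that the authors made with RMA (background correction, quantile normalization, median polish) in Partek Genomics Suite 6.6; they were used as deposited, with 0 missing values. Of 22690 probe sets, 64 controls were left out. Gene symbols came from the platform annotation, in which 20393 probe sets name 1 gene, 691 several and 1606 none, and updated by Entrez ID all 33 genes matched RefSeq. The probe set naming 1 gene with the highest mean was read for each gene. Groups came from the labels. limma 3.58.1 (R 4.3.3) fitted 1 model of 6 groups with 12 residual and 5.1 prior degrees of freedom and Benjamini-Hochberg adjustment over 22626 probe sets, with a threshold of 0.05. The script was tested on simulated data. Levels of different probe sets were not compared, and the number of arrays limits the precision. Every gene was to be named, with values per array for the 14 with the largest change among those past 2-fold against a control, past the interaction or past FC vs. BG, and up to 3 genes per other list. The genes, lists and tests were chosen with earlier results of these data known. Alternatives were ordinary contrasts without moderation, a model per muscle, array quality weights, a filter at a mean log2 signal of 6, trend and robust moderation, median centring, the mean of all probe sets of a gene, the replicate block, the 2-fold limit named in the study's methods (with unadjusted p in EDL), and leaving out each array. Promoter windows were from RefSeq (GRCm38.p6), and none was used for Idh3a, Dbt and Acat1. Figures were drawn with matplotlib 3.10.9.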

Additional observations from a re-analysis of the deposited data

Results flagged for a closer look

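A change of flown soleus that differed from that of flown EDL, by the limma test of the difference itself, marked 10 genes against BG and 3 against FC. For BF vs. BG the change of soleus minus that of EDL was -2.45 for Bdh1, -2.21 for Idh2, -1.71 for Acss2, -1.14 for Oxct1, -1.05 for Suclg2, -0.91 for Hibch, -0.84 for Dld, -0.68 for Acat1, -0.68 for Mdh1 and -0.64 for Got1, in log2 units. For BF vs. FC it was -1.98 for Idh2, -1.42 for Acss2 and -1.04 for Oxct1. The 2 tests share the BF arrays. Groups of 3 arrays were not searched for outlying values by Dixon's criterion. The array quality weights of limma ran from 0.303 for soleus BF 2 to 3.18 for EDL BF 1.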

How the results depend on the processing

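With 3 arrays per group, 13 of the 20 falls in BF vs. BG soleus and 13 of the 20 calls in BF vs. FC soleus passed in every analysis that tested them without the study's 2-fold limit, as did 3 of 7 in FC vs. BG soleus, 0 of 3 in BF vs. FC EDL, 5 of 10 and 1 of 3 differences between muscles against BG and FC, and 1 of 7, 4 of 9 and 5 of 9 soleus vs. EDL calls in BF, FC and BG. The signal filter removed Mccc2, so its calls were not tested there. For BF vs. BG soleus, the highest adjusted p were 0.683 for Idh3a and 0.0743 for Dlst with the mean of all probe sets, 0.101 for Fh1 without soleus BG 3, 0.179 for Mdh2 and 0.101 for Pcca without soleus BF 2, 0.0705 for Got2 without soleus BG 1 and 0.0504 for Bckdhb without soleus BF 1. Got2 in FC vs. BG soleus reversed to -0.16 (adjusted p = 0.308) with the mean of all its probe sets.

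Counting only changes past 2-fold gave 5 genes in BF vs. BG, 1 in FC vs. BG and 6 in BF vs. FC soleus, 0 in BF vs. FC EDL, 5 in the difference between muscles against BG, and 1, 2 and 3 in soleus vs. EDL of BF, FC and BG. BF vs. BG EDL gave 1 gene, Idh1, with array weights, the signal filter, trend and robust moderation, median centring, the mean of probe sets or the replicate block. Array weights also gave 1 in FC vs. BG EDL, 8 in BF vs. FC EDL, 9 in the difference between muscles against FC and 17 in soleus vs. EDL of BF. BF vs. FC EDL gave 1 with a model per muscle and 1 with ordinary contrasts, and the mean of probe sets gave 5 in the difference against FC. The cause was not tested. Leaving out each array gave 15 to 21 genes in BF vs. BG soleus, 3 to 7 in FC vs. BG soleus and 14 to 20 in BF vs. FC soleus, 0 to 1, 0 to 1 and 0 to 4 in the same comparisons of EDL, 5 to 11 and 1 to 6 in the differences between muscles against BG and FC, and 1 to 11, 4 to 12 and 6 to 10 in soleus vs. EDL of BF, FC and BG.

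Same-numbered arrays deviated together (correlation above 0.1) in 3 of 9 pairs of conditions in soleus and 4 of 9 in EDL. Their values ran from -0.06 to 0.24 and from -0.13 to 0.30. Pairs of different numbers ran from -0.24 to 0.12 in soleus and from -0.32 to 0.22 in EDL. The numbers were not taken as pairs in the main model. Across muscles it was 6 of 9, with values from -0.05 to 0.37, and pairs of different numbers ran from -0.28 to 0.19. Whether same-numbered arrays of the 2 muscles share a mouse was not settled. The replicate block was not the same in all comparisons. Within a muscle, and for the differences between muscles, it was a term for the replicate number in each muscle. With it, 18 genes passed in BF vs. BG soleus, 6 in FC vs. BG soleus and 17 in BF vs. FC soleus. The same comparisons of EDL gave 1, 0 and 4, and the differences between muscles gave 10 and 3. Those differences were not run with a block for the mouse, so their counts do not bear on mouse pairing. Only for soleus vs. EDL did the block join same-numbered arrays of a condition, and 10, 11 and 9 genes passed in BF, FC and BG.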
